A study of Homo sapiens with 6 samples.

Results

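The NAP1 nucleosome assembly family was examined as 6 of the 46427 genes in the deposited expression table: NAP1L1 (Gene ID 4673), NAP1L2 (4674), NAP1L3 (4675), NAP1L4 (4676), NAP1L5 (266812), and SET (6418). The group was chosen by the measured change of 1 of its members, since NAP1L5 was higher in the si-MALAT1 library of each cell line, and the other 5 were added by gene symbol as its relatives. The changes of NAP1L5 after MALAT1 knockdown are therefore described without a test, whereas the 5 relatives were tested across all genes.

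NAP1 proteins are acidic histone chaperones that bind H2A-H2B dimers, carry them through the cytoplasm, and deposit or remove them during nucleosome assembly. NAP1L1 and NAP1L4 are made in nearly all tissues, whereas NAP1L2, NAP1L3, and NAP1L5 are intronless genes known mainly from brain, of which NAP1L5 is an imprinted gene read from the paternal copy. SET shares the NAP fold and is also an inhibitor of protein phosphatase PP2A and of histone acetylation.

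Total RNA of 3 established human NSCLC cell lines, namely H460, H1299, and A549, had been sequenced from 1 control and 1 si-MALAT1 library per line. In the si-MALAT1 group, the lncRNA MALAT1 was targeted with a small interfering RNA transfected with a lipid reagent, and the control libraries are labelled non-treated. Negative control and si-Control cultures are both mentioned in the methods, without saying which one was sequenced. Each group therefore held 3 libraries, 1 from each line, with no replicate within a line. The age of the cells and the time of RNA collection were not given in the sources used here. Library totals ran from 42506818 to 68515992 reads. The log2 fold change of MALAT1 itself was -2.32 (H460), -2.96 (H1299), and -2.84 (A549), with an adjusted p of 0.0381 in the edgeR test. Of the 5 epithelial markers, KRT8 and KRT18 held 11408 to 144327 reads in each library and EPCAM 23 to 485, while CDH1 held at most 13 reads in the H460 and H1299 libraries, and KRT19 at most 21 in H1299 and 121 in A549. Of the 8 markers of other cell types, the leukocyte genes PTPRC and CD3E were at 0 in all 6 libraries. CD68, the lysosomal protein gene used to mark macrophages, held 624 to 4045 reads, and the collagen gene COL1A1 38 to 472. For the collagen gene COL3A1, control and si-MALAT1 reads were 4961 and 4300 (H460), 0 and 22 (H1299), and 1961 and 1831 (A549).

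The 6 members differ in gene structure in the deposited annotation (GRCh38). NAP1L5, at chr4:88695913-88697829 on the minus strand, is 1 exon of 1917 bases that encodes 182 residues, fewer than the 386 residues of NAP1L4 or the 391 of NAP1L1. NAP1L2, at chrX:73212299-73214851, and NAP1L3, at chrX:93670930-93673578, both on the minus strand, are also single exons, of 2553 and 2649 bases, and encode 460 and 506 residues. NAP1L1, at chr12:76036585-76084687 on the minus strand, has 15 annotated transcripts of 13 to 16 exons. NAP1L4, at chr11:2944437-2992329 on the minus strand, has 14 transcripts of 15 to 18 exons. SET, at chr9:128683424-128696396 on the plus strand, has 9 transcripts of 7 to 9 exons and encodes 290 residues in the one examined.

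The sequences just upstream of the 3 single-exon members are shown because these members were all higher by at least 1.5-fold after knockdown in H460 and H1299. They were thus picked on the values described below. Each is the 250 bases before the annotated start in RefSeq (GRCh38.p14), read on the gene's strand, at chr4:88697830-88698079 for NAP1L5, chrX:73214852-73215101 for NAP1L2, and chrX:93673579-93673828 for NAP1L3. Capitals mark the cyclic AMP response element core TGACG and the GC box GGGCGG, each searched on both strands.
NAP1L5: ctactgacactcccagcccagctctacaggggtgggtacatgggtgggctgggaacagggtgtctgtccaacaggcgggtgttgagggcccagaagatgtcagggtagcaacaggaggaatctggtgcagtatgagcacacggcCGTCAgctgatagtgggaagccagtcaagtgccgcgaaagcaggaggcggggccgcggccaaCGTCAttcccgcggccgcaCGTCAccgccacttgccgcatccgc
NAP1L2: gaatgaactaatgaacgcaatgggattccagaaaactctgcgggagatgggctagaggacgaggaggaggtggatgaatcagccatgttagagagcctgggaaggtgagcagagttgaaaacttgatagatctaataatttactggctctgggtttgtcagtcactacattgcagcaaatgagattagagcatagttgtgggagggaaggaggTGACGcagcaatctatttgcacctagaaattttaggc
NAP1L3: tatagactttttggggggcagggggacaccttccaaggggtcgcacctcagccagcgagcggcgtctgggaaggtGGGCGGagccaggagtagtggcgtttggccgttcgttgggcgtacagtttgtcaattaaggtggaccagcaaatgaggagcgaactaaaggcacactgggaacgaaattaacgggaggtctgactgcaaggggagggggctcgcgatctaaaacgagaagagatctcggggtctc
The NAP1L5 sequence held 3 copies of the TGACG core, each in the reverse orientation, 63.6% GC, and 16 CpG. NAP1L2 held 1 copy of the same core with 45.6% GC and 4 CpG, and NAP1L3 held no copy of it but 1 GC box, with 57.6% GC and 16 CpG. The core occurred in 21.2% of 35116 promoters of this length and 3 or more copies in 1.01%, the GC box occurred in 42.6%, and the medians were 58.0% GC and 11 CpG. Neither the TATA box TATAA nor the CCAAT box, which occurred in 18.9% and 32.0% of promoters, was found in any of the 3. The NAP1L1 window, not shown, held 1 TGACG core and 1 GC box, with 67.6% GC and 24 CpG. NAP1L1 was also higher in both lines, by less than 1.5-fold. No window of NAP1L4 or SET held the core. These matches describe letters in a window and were not tied to binding of any factor.

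NAP1L5 itself, the shortest protein of the family, was higher in the si-MALAT1 library of every line, as its choice fixed. The control libraries held 378 (H460), 516 (H1299), and 38 (A549) reads, against 831, 1354, and 147 in the si-MALAT1 libraries. All 3 si-MALAT1 libraries stood above the control of their own line, although the A549 si-MALAT1 library held fewer reads than the control libraries of the other lines. To compare libraries of unequal depth, counts were scaled by RLE size factors (a median-ratio scaling), 1 was added, and log2 fold changes were taken as si-MALAT1 minus control. The log2 fold change of NAP1L5 reached 1.22 (95% Clopper-Pearson interval 1.04 to 1.40), 1.52 (1.38 to 1.67), and 1.79 (1.28 to 2.36) in this order of lines, equal to folds of 2.32, 2.87, and 3.45. These intervals cover counting error only, because the reads carry no molecular identifiers and no condition was repeated within a line. The mean over the lines was 1.51 ± 0.29 (SD, n = 3). Among 14464 genes with a mean count of at least 50, 7 had a smallest change across the 3 lines larger than the 1.22 of NAP1L5, which is given as a description of the choice. Whether more RNA per cell or more cells expressing the gene gave the higher level cannot be told apart in bulk RNA.

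**Figure D1:**
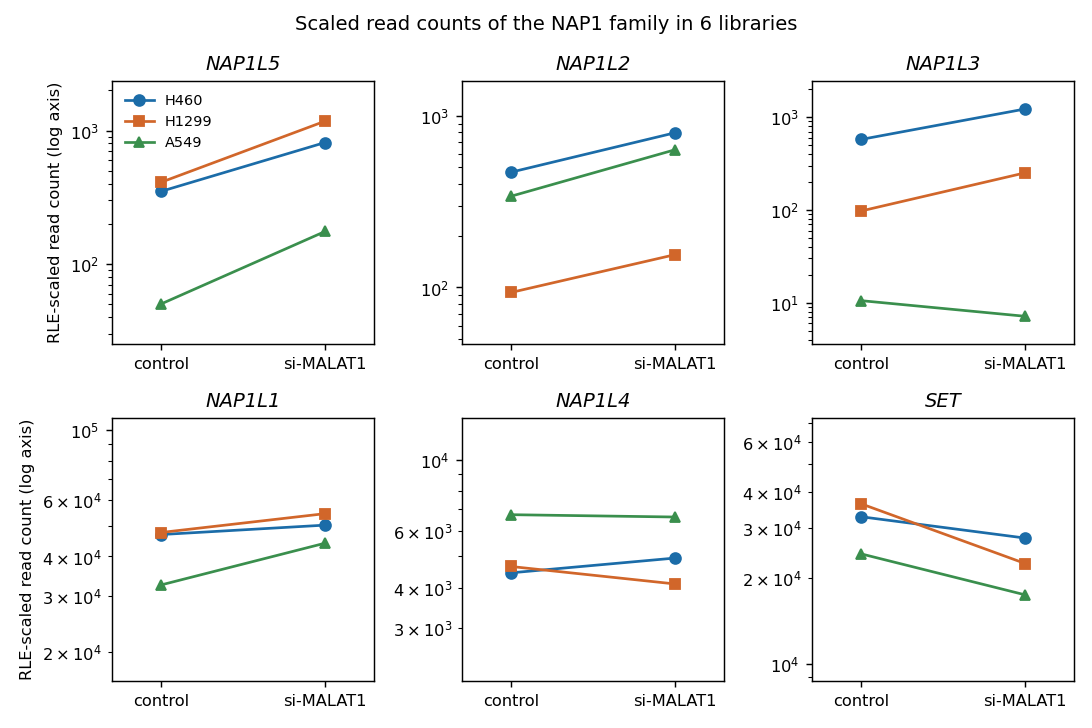
RLE-scaled read counts (log axis) of the 6 members, 1 panel per gene, with the control and si-MALAT1 library of each cell line joined by a line. NAP1L5 and NAP1L2 are higher with si-MALAT1 in all 3 lines, NAP1L3 is higher in H460 and H1299 and sits at 10.5 and 7.14 in A549, NAP1L4 has no common direction, and SET is lower in all 3.

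NAP1L5 lies inside another gene. It occupies intron 23, from 88687300 to 88704097, of a HERC3 transcript of 26 exons on the opposite strand of chromosome 4. Of the 1917 bases of NAP1L5, 244 are shared with an exon of 1 of the 16 annotated HERC3 transcripts, and the sources do not state whether counting used the strand. HERC3, a ubiquitin ligase gene, held 503 (H460), 815 (H1299), and 200 (A549) reads in the controls and 597, 1118, and 330 after knockdown. The log2 differences were 0.33, 0.59, and 0.58, each below that of NAP1L5 in the same line, with an adjusted p of 0.229 in edgeR and 0.0966 in DESeq2. The part of HERC3 reads in the NAP1L5 count was not tested. Among 11 of 12 fixed genes around this locus that had a read in every library, 0 passed a fold of 1.5 in one direction in all 3 lines (1.19% of all genes upward and 1.28% downward), and the medians of the log2 fold change were 0.08 (H460), 0.27 (H1299), and -0.25 (A549). PYURF and PKD2 were higher in all 3 lines at any size, as was HERC3 (3 of 11, beside 21.4% of all genes), and FAM13A, PPM1K, and GPRIN3 were lower (3 of 11, beside 18.8%). None of the 11 passed the edgeR test after adjustment (0.00523% of all genes), 2 were higher and 4 lower at an unadjusted p under 0.05 (15.0%), and DESeq2 (8.41%) called 1, GPRIN3, as lower (adjusted p = 0.0200).

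NAP1L2, an X-linked member known for its role in neural precursor cells, was the relative whose changes were most alike across the lines. Reads in the controls numbered 507 (H460), 118 (H1299), and 258 (A549), and those in the si-MALAT1 libraries 813, 179, and 532. The si-MALAT1 library was the higher in 3 of 3 lines, and the H1299 libraries were the lowest in both groups. The log2 fold changes were 0.76 (0.60 to 0.93), 0.73 (0.39 to 1.08), and 0.90 (0.68 to 1.12), with a mean of 0.80 ± 0.09 (SD, n = 3), so each point value passed a fold of 1.5 (0.58 on the log2 scale) while the H1299 interval reached below it. In edgeR, with the line as block, the p was 0.00283 and the adjusted p 0.124, and DESeq2 gave an adjusted p of 0.00436. The call thus depended on the tool.

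NAP1L3, also X-linked, held 623 control and 1255 si-MALAT1 reads in H460, and 123 control and 290 si-MALAT1 reads in H1299. Only 8 and 6 reads were counted in A549, below every other library. The H460 log2 fold change was 1.09 (0.95 to 1.23), that of H1299 1.36 (1.06 to 1.68), and that of A549 -0.50 (-2.37 to 1.16). The A549 interval spanned 0, held the H460 value, and overlapped the H1299 interval, so a change of the size in H460 was not detectable at this depth. The mean was 0.65 ± 1.01 (SD, n = 3), less than its spread between lines, and the paired edgeR estimate was 1.00 with a p of 0.0165 and an adjusted p of 0.223 (DESeq2 adjusted p = 0.134).

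NAP1L1, the most deeply covered member and the general H2A-H2B carrier, had the smallest upward values of the family that shared a sign in all 3 lines. It was counted 50682 (H460), 60021 (H1299), and 24727 (A549) times in the controls and 51277, 62814, and 36977 times after knockdown. The si-MALAT1 value was the higher in each line, and the A549 control library was the lowest of the 6. The log2 fold changes were 0.10 (0.08 to 0.12), 0.20 (0.18 to 0.21), and 0.44 (0.41 to 0.46), with a mean of 0.24 ± 0.17 (SD, n = 3) and an adjusted p of 0.437 in edgeR and 0.262 in DESeq2. The value in H460 depended on the deposited unit, since it was -0.46 as log2(TPM + 1) and -0.32 as log2(FPKM + 1).

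The deposited FPKM and TPM divide reads by an estimated transcript length, and that length was not constant for NAP1L1. Relative to the single-exon members, the length implied by its read count and FPKM came to 5486 bases for the H460 control and 7376 bases for its si-MALAT1 counterpart, against 6867 to 7773 in the other lines. Its annotated transcripts range from 2165 to 13159 bases. The H460 control library was thus the lowest of the 6, and the TPM of NAP1L1 there was the highest of the control libraries. For SET, the implied length stayed between 2907 and 2931 bases and for NAP1L4 between 2467 and 2539. Which NAP1L1 transcripts differed was not tested, as the table gives 1 value per gene.

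**Figure D2:**
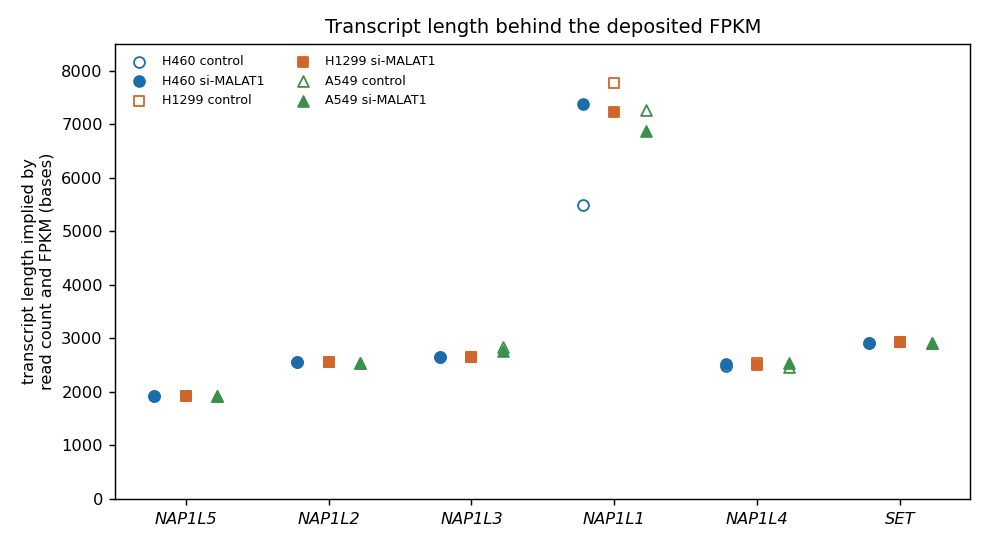
Transcript length in bases implied by the deposited read count and FPKM of each member (linear axis from 0), with open symbols for control and filled symbols for si-MALAT1 libraries of each cell line. The NAP1L1 value of the H460 control library, 5486, lies below the other 5 at 6867 to 7773. NAP1L4 and SET show nearly the same length in all libraries, and NAP1L3 rests on 8 and 6 reads in A549. NAP1L5 and NAP1L2 are flat by construction, since their annotated lengths set the scale.

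NAP1L4, a second widely expressed histone carrier, had no common direction. Control libraries gave 4810 (H460), 5874 (H1299), and 5120 (A549) reads and si-MALAT1 libraries 5053, 4734, and 5567. The values overlapped between the groups, with H1299 alone lower after knockdown in reads. The log2 fold changes were 0.15 (0.10 to 0.21), -0.18 (-0.24 to -0.12), and -0.02 (-0.08 to 0.03), averaging -0.02 ± 0.17 (SD, n = 3). Neither edgeR (adjusted p = 0.922) nor DESeq2 (0.959) called it.

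SET was the only member with a lower value in the si-MALAT1 library of all 3 lines. There were 35477 (H460), 45953 (H1299), and 18476 (A549) reads in the controls and 28231, 25932, and 14679 in the si-MALAT1 libraries. The H1299 libraries held both the highest control value and the widest gap. The log2 fold changes were -0.25 (-0.27 to -0.23), -0.69 (-0.72 to -0.67), and -0.48 (-0.51 to -0.45), with a mean of -0.47 ± 0.22 (SD, n = 3), and a fold of 1.5 was passed in H1299 alone. The p was 0.00787 in edgeR, with an adjusted p of 0.173, and DESeq2 gave an adjusted p of 0.0119. SET has many processed copies in the genome, and 16.3% of the 50-base windows of its transcript and 3.72% of the 100-base windows also occur in transcripts of other genes, against 0% at both lengths for NAP1L2, NAP1L3, and NAP1L5. The copies SETP14 and SETP21 held at most 512 and 346 reads in any library.

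SET was also the only member whose 3' UTR held the word TGAATCA, 1 copy from base 1028 of 1732, and it is shown because this word had been picked earlier from the same libraries for its presence in genes with lower values after knockdown. The site, with the word in capitals, is:
SET: gtaatgggattTGAATCAatgtattaata
The word or its one-base shift ATGAATC occurred in 17.3% of 12720 genes, and 1 of 6 members with it lies near that share. A single member with a word chosen on these libraries is a description.

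**Figure D3:**
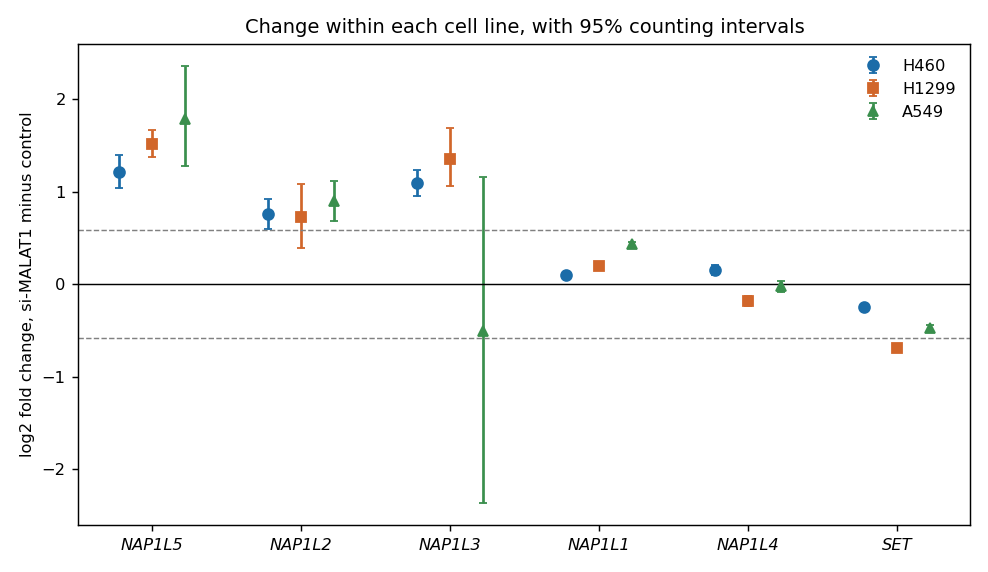
Log2 fold change of each member in each cell line, si-MALAT1 minus control, with 95% Clopper-Pearson counting intervals and dashed lines at a fold of 1.5. All 3 points of NAP1L5 (1.22 to 1.79) and NAP1L2 (0.73 to 0.90) lie above the upper line, the A549 interval of NAP1L3 runs from -2.37 to 1.16, and the points of SET run from -0.69 to -0.25.

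As a group, 3 members passed a fold of 1.5 upward in H460, where 9.5% of the 17834 genes with a read in every library did so, and 0 passed it downward (10.3% of genes). In H1299, 3 passed it upward (11.7%) and 1, SET, downward (11.4%). In A549, 2 passed it upward (11.5%) and 0 downward (11.4%). NAP1L5 and NAP1L2 passed it upward in all 3 lines (1.19% of genes), and 0 members passed it downward in all 3 (1.28%). At any size, 3 of 6 were higher in all 3 lines (21.4% of genes) and 1 was lower (18.8%). NAP1L5 is in the upward counts by its choice, so of the 5 relatives 1 passed a fold of 1.5 upward in all 3 lines.

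Of the 5 relatives, 0 passed the edgeR test after adjustment, where 0.00523% of 19122 genes did (1 gene, MALAT1). At an unadjusted p under 0.05, NAP1L2 and NAP1L3 were higher and SET lower, where 15.0% of genes passed. In DESeq2, NAP1L2 was called higher and SET lower, where 8.41% of 13561 genes with an adjusted p were called. The 3 members higher by at least 1.5-fold in H460 and H1299 are the 3 without introns. Over 351 single-exon protein-coding genes, a comparison chosen after these values were seen, the median log2 fold changes were 0.18 (H460), -0.12 (H1299), and 0.07 (A549), and 1.99% were higher by 1.5-fold in all 3 lines. Over 12470 multi-exon genes, the medians were 0.02, 0.04, and 0.00, and the share was 1.03%.

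The members spanned a wide range of levels per transcript length. SET was the most abundant in 5 of 6 libraries, at 209 (H460), 271 (H1299), and 180 TPM (A549) in the controls, and at 160, 176, and 129 TPM in the si-MALAT1 libraries. NAP1L1 followed at 158, 134, and 96.6 TPM in the controls and 115, 172, and 138 TPM in the si-MALAT1 libraries, and stood above SET in the A549 si-MALAT1 library alone. NAP1L4 came next in every library, from 33.0 to 58.9 TPM. The single-exon members lay lower: NAP1L5 was at 3.38, 4.66, and 0.561 TPM in the controls and 7.16, 14.0, and 1.96 TPM in the si-MALAT1 libraries. NAP1L2 was at 3.41, 0.800, and 2.88 TPM in the controls and 5.26, 1.39, and 5.35 in the si-MALAT1 libraries. NAP1L3 was at 4.04, 0.804, and 0.080 TPM, then 7.82, 2.17, and 0.056. Together these 3 made up 2.63%, 1.39%, and 1.04% of the family's summed TPM in the control libraries of H460, H1299, and A549, and 6.17%, 4.36%, and 2.23% after MALAT1 knockdown. The share was higher in 3 of 3 lines while it stayed small beside SET and NAP1L1, and NAP1L5 is part of it by choice. The ratio of NAP1L1 to SET in TPM was 0.757 (H460), 0.492 (H1299), and 0.536 (A549) in the controls and 0.717, 0.979, and 1.07 after knockdown. The implied length of NAP1L1 differed between the H460 libraries, as given above.

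**Figure D4:**
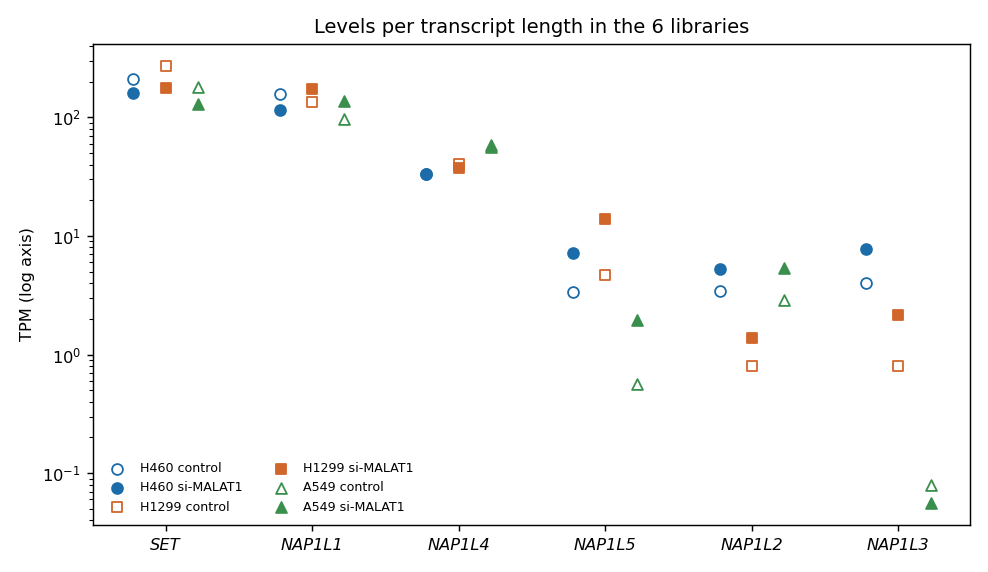
TPM (log axis) of the 6 members in the 6 libraries, open symbols for control and filled symbols for si-MALAT1. SET and NAP1L1 lie between 96.6 and 271 TPM, NAP1L4 between 33.0 and 58.9, and the single-exon members between 0.056 and 14.0, with NAP1L3 in A549 the lowest.

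The members' levels also differed between cell lines, a comparison that the choice of NAP1L5 did not use. Each line was represented by its control and si-MALAT1 libraries with treatment as a term in edgeR, and levels are given as the mean RLE-scaled count of the pair. NAP1L5 averaged 581 scaled reads (H460), 792 (H1299), and 113 (A549). A549 was below H460 by a log2 difference of -2.48 (adjusted p = 6.19e-04) and below H1299 by -2.84 (adjusted p = 2.84e-04), whereas H1299 and H460 overlapped and did not pass (0.36, adjusted p = 0.190). NAP1L3 averaged 902, 175, and 8.84 scaled reads in the same order of lines. Its differences were -2.42 for H1299 minus H460 (adjusted p = 0.00168), -6.61 for A549 minus H460 (2.12e-04), and -4.19 for A549 minus H1299 (8.25e-04), so the lines had 3 distinct levels.

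NAP1L2 had another order, with 632 scaled reads in H460, 487 in A549, and 124 in H1299. H1299 was lower than H460 (-2.35, adjusted p = 3.00e-04) and A549 higher than H1299 (1.96, adjusted p = 7.03e-04), and A549 and H460 overlapped (-0.40, adjusted p = 0.162). Thus A549, lowest in NAP1L5 and NAP1L3, was not lowest in NAP1L2. NAP1L4 was highest in A549, at 6684 scaled reads against 4695 in H460 and 4381 in H1299, with differences of 0.51 (adjusted p = 0.0323) and 0.62 (adjusted p = 0.0127), while H1299 and H460 overlapped (-0.11, adjusted p = 0.533). SET was lowest in A549, at 20900 against 30211 and 29456, with differences of -0.55 (adjusted p = 0.0340) and -0.47 (adjusted p = 0.0475), and H1299 and H460 overlapped (-0.08, adjusted p = 0.673). The SET ranges in A549 and H1299 also overlapped. NAP1L1 passed in no contrast, with differences of 0.06, -0.36, and -0.41 and adjusted p-values of 0.763, 0.100, and 0.0554.

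In all, 2 of 6 members differed between H1299 and H460 (52.6% of 19122 genes), 4 of 6 between A549 and H460 (38.2%), and 5 of 6 between A549 and H1299 (48.9%). The markers of neuronal and neuroendocrine cells were examined because the single-exon members are known mainly from brain. Their summed level over the list of 8 was 722 to 810 TPM in the control and 722 to 848 TPM in the si-MALAT1 libraries. In all 3 lines, 0 of the 8 genes had 1 direction, beside 21.4% of all genes higher and 18.8% lower. The genes on the list ranged from INSM1, a neuroendocrine transcription factor gene with at most 4 reads and 0 in H460 and A549, to TUBB3 with 7921 to 28274 reads and UCHL1 with 25800 to 40950 in every library.

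Some markers of other kinds had 1 direction in all 3 lines, as NAP1L5 and NAP1L2 did. Among all genes with a read in every library, 21.4% were higher and 18.8% lower in all 3 lines at any size. EPCAM was higher after knockdown in all 3 lines, by folds of 2.52, 1.99, and 2.23 (adjusted p = 0.123 in edgeR and 0.0103 in DESeq2), and COL1A1 by folds of 2.84, 4.05, and 1.59 (adjusted p = 0.136 in edgeR and 0.00355 in DESeq2). The other collagen gene on the list, COL3A1, was lower in H460 (-0.12) and A549 (-0.24) and went from 0 to 22 reads in H1299. KRT8 and KRT18 were lower in all 3 lines, with log2 fold changes of -0.22, -0.22, and -1.16 and of -0.48, -0.10, and -1.23 (adjusted p = 0.304 and 0.277 in edgeR, 0.111 and 0.0732 in DESeq2). Over the 5 epithelial markers the summed level was 480 to 4728 TPM in the control and 458 to 2078 TPM in the si-MALAT1 libraries, and over the 8 markers of other cell types it was 26.1 to 36.5 and 20.01 to 48.0 TPM. Over the 4 mesenchymal markers it was 691 to 1887 and 966 to 2203 TPM, and CDH2 alone of them had 1 direction in all 3 lines (0.27, 0.52, and 0.44, adjusted p = 0.193 in edgeR and 0.0315 in DESeq2). Their part in the members' values was not tested.

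Genes outside the family that carry the NAP domain were taken as a fixed list of 6, of which 4 had a read in every library (TSPYL5 and TSPYL6 did not). Their median log2 fold changes were 0.21 (H460), 0.39 (H1299), and 0.81 (A549), beside 0.02, 0.02, and 0.01 over all 17834 genes. A fold of 1.5 in one direction in all 3 lines was passed by 0 of 4 (1.19% of all genes upward and 1.28% downward). One of the 4, SETSIP, held only 2 to 8 reads per library. The A549 median was 0.49 as log2(TPM + 1) and 0.48 as log2(FPKM + 1), and with no low-count filter the H460 median was -0.07. TSPYL1 had log2 fold changes of 0.58, 0.49, and 0.54, with a mean of 0.53 ± 0.05 (SD, n = 3) and an adjusted p of 0.115 in edgeR and 1.48e-04 in DESeq2. TSPYL2, a nuclear inhibitor of cell cycle progression, had 0.48, 0.46, and 1.04 (adjusted p = 0.160 in edgeR and 0.0220 in DESeq2). Of the 4 genes with a read in every library, edgeR tested 3, and 0 passed after adjustment (0.00523% of all genes). TSPYL1 and TSPYL2 were higher at an unadjusted p under 0.05 (15.0% of all genes), and DESeq2 (8.41%) called both.

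Among 30 other histone chaperones, 29 had a read in every library, and the medians were -0.05, -0.24, and -0.02. A fold of 1.5 in one direction in all 3 lines was passed by 0 (1.19% of all genes upward and 1.28% downward). At any size, 3 were higher (10.3%, beside 21.4% of all genes) and 8 lower (27.6%, beside 18.8%) in all 3 lines. None passed the edgeR test after adjustment (0.00523% of all genes). At an unadjusted p under 0.05, 1 was higher and 4 lower (15.0% of all genes in either direction), and DESeq2 called 1 higher and 2 lower (8.41% of all genes). RBBP4, a histone-binding subunit of several chromatin complexes, had log2 fold changes of -0.47, -1.08, and -1.09 (adjusted p = 0.0994 in edgeR and 3.72e-05 in DESeq2). CHAF1A, the large subunit of the replication-coupled H3-H4 chaperone CAF-1, had -0.22, -1.26, and -0.80 (0.173 and 0.0231). SPTY2D1, a histone H3-H4 chaperone, had 0.35, 0.91, and 0.71 (0.133 and 0.00422).

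Of 16 partners of SET and subunits of the phosphatase PP2A, which SET inhibits, 14 had a read in every library, with medians of 0.18, 0.12, and 0.07. None passed a fold of 1.5 in one direction in all 3 lines (1.19% of all genes upward and 1.28% downward), and at any size 5 were higher (35.7%, beside 21.4% of all genes) and 0 lower (beside 18.8%). In edgeR 0 passed after adjustment (0.00523% of all genes). At an unadjusted p under 0.05, where 15.0% of all genes passed, 2 were higher and 0 lower. DESeq2, which called 8.41% of all genes, called PPP2R1B, a scaffold subunit of PP2A, as higher, with log2 fold changes of 0.46, 0.49, and 0.52 (adjusted p = 0.129 in edgeR and 9.85e-04 in DESeq2).

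**Figure D5:**
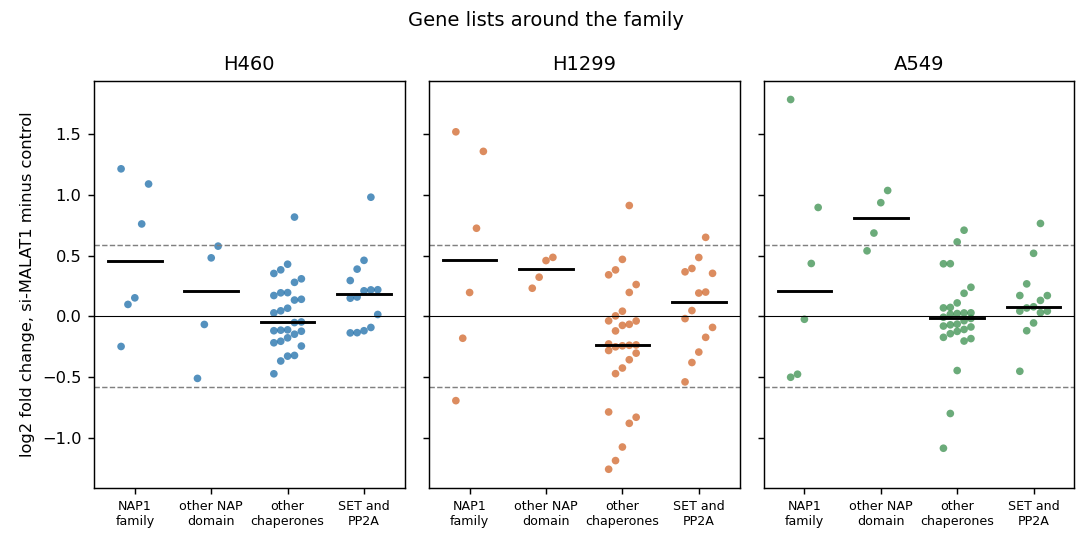
Log2 fold changes, si-MALAT1 minus control, of the genes on 4 lists in each cell line, 1 point per gene with a read in every library, with black bars at the median of each list and dashed lines at a fold of 1.5. By range, the widest spread in each line is in the NAP1 family, whose members were chosen with NAP1L5 in view. In H1299 the margin is narrow, with the family at -0.69 to 1.52 and the other chaperones at -1.26 to 0.91. The 29 other chaperones centre at -0.05, -0.24, and -0.02.

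The genes whose pattern was most like that of NAP1L5 were named in 2 ways among 14464 genes with a mean count of at least 50, as a description over 6 libraries that share 3 cell lines. By Pearson r of log2 scaled counts over the 6 libraries, the nearest included DOP1A (r = 0.996), MAGED1 (0.995), STXBP5 (0.993), and ARMCX7P (0.993). These genes shared the low A549 level, but their log2 fold changes, 0.24 to 0.85, were below those of NAP1L5 in every line. By the distance between the 3 log2 fold changes, the nearest were TP53INP1 (0.19), EGR1 (0.25), IL6R (0.31), LOC100288846 (0.33), and KCNAB3 (0.45). TP53INP1, a p53-induced gene, had log2 fold changes of 1.27, 1.44, and 1.62, and EGR1, an immediate early transcription factor gene, had 0.98, 1.46, and 1.86. Within the family, r with NAP1L5 was 0.972 for NAP1L1, 0.790 for NAP1L3, 0.221 for SET, -0.187 for NAP1L2, and -0.858 for NAP1L4. NAP1L2, the relative nearest to NAP1L5 in that it was higher by over 1.5-fold in each line, thus had a different order of levels between lines.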

How the data were processed

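The NAP1 family was read from deposited gene tables of 6 libraries, 1 control and 1 si-MALAT1 library of each of 3 NSCLC cell lines, grouped by the sample labels. The authors trimmed paired reads from a stranded, rRNA-depleted kit, aligned them to hg38 with HISAT 2.1.0, and estimated abundances with StringTie (its version differs between the methods and the submitters' processing notes, which give 1.3.4b). Read counts, which the paper describes as abundance estimates from StringTie, were deposited as whole numbers. FPKM and TPM, in which the authors corrected for depth and for transcript length, were deposited beside them. The 18 columns of other samples were not used.

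Log2 fold changes came from RLE-scaled counts plus 1 within a line, with 95% Clopper-Pearson intervals. These intervals take the deposited estimates as independently counted reads. Genes with a count of 0 in any library were left out of background counts, leaving 17834. Genes were tested with the quasi-likelihood method of edgeR 4.0.16, with cell line as block, TMM, filterByExpr, and Benjamini-Hochberg adjustment over 19122 genes, with 2 residual degrees of freedom, two-sided. DESeq2 1.42.0 was an alternative, as were RLE scaling in edgeR, no low-count filter, leaving out each line, no block, TMM-scaled counts, TPM or FPKM plus 1, and a pseudocount of 10. Pairs come from 1 cell line each, and deviations correlated at 0.884 to 0.922 within a line against at most -0.298 with another line. P-values of the paired test measure the change against its spread between lines, which mixes differences in response with technical spread. The cell line contrasts rest on the same residual, with a control and a si-MALAT1 library for each line.

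The members and lists were chosen with earlier results of these data known. Named genes were the members, HERC3, MALAT1, list genes past the paired test or 1.5-fold in all 3 lines, single counts of up to 5, and the 5 genes most like NAP1L5 by r or by distance of fold changes, of which 1 is not reported here. Marker genes beside EPCAM and COL1A1, which passed 1.5-fold in all 3 lines, were named after their values were seen. PPP2R1B, GPRIN3, TSPYL1, TSPYL2, RBBP4, CHAF1A, SPTY2D1, and the neighbours of NAP1L5 that moved in all lines were named under small counts, and the single-exon comparison was chosen after values were seen. In counts drawn at real means for 18349 genes with 200 changed, the paired test recovered 70.4% of genes changed 2-fold and 87.9% of those changed 4-fold, and 4.5% of calls were false. That draw used a spread smoothed over genes of like level and the same fold in all 3 lines. In the real counts the paired test called 1 of 19122 genes, so these shares do not tell how often a real change was detected. Gene structures came from the deposited annotation, promoters from RefSeq, and shared windows from GENCODE transcripts. R 4.3.3 and Python 3.11.15 were used.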

Additional observations from a re-analysis of the deposited data

Results flagged for a closer look

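NAP1L4 had changes of opposite sign in 2 cell lines under the same knockdown, with a log2 fold change of 0.15 in H460 and -0.18 in H1299. The counting intervals were 0.10 to 0.21 and -0.24 to -0.12 and did not overlap. With 1 library per line and condition, the difference was not tested, and as log2(TPM + 1) the H460 value was -0.0031.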

How the results depend on the processing

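The number of genes past the paired test depended on the tool and the lines. It was 0 higher and 1 lower in edgeR, and 563 higher and 577 lower in DESeq2. With no low-count filter 0 were lower, and without the replicate block, that is without pairing by cell line, 0 were lower. Leaving out 1 line gave 0 to 51 higher and 0 to 112 lower, and the highest counts, 51 and 112, came without H460. The paired log2 estimate for NAP1L4, -0.03, ran from -0.12 without H460 to 0.059 without H1299, where the adjusted p was 0.880 in edgeR. The members higher by 1.5-fold in all 3 lines numbered 2 in scaled counts and 1 with log2(TPM + 1) or log2(FPKM + 1), scales on which the pseudocount of 1 weighs more for low genes. The adjusted p of NAP1L2 and SET passed with DESeq2 alone. Between lines, NAP1L4 and SET lost the call for A549 minus H460 with no low-count filter (adjusted p = 0.0564 and 0.0538), SET lost that for A549 minus H1299 with RLE scaling (0.0509) and with no filter (0.0641), and NAP1L1 gained it with DESeq2 (0.0178). Of 72 within-line log2 fold changes of members under other scalings, 27 moved beyond their counting interval, as for NAP1L5 in A549, at 1.79 in scaled counts, 0.92 with log2(TPM + 1), and 0.80 with log2(FPKM + 1). Of 35 paired tests of members, 32 kept direction and call, and of 54 cell line contrasts 49 did. The 5 relatives had no edgeR call to lose in the paired tests, and none gained one without the replicate block. Depth limits NAP1L3 in A549, at 8 and 6 reads.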
